A study of Homo sapiens with 5 samples.

Results

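Long intergenic noncoding RNAs carry the symbol prefix LINC when no function has given them another name. The rows described here are the 137 gene symbols that start with LINC, contain no "-AS", and had 1 or more CPM (counts scaled to a common library size, with TMM factors that correct the library totals for composition) in at least 1 of 5 libraries. They are 137 of the 886 LINC rows and of the 26475 rows in all. No count was recorded in any library for 510 of the 886, and 376 had at least 1 count. Because the rows were chosen by level, the levels that let a row in are a description and support nothing.

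MDA-MB-231 is an established human cell line from a triple-negative breast cancer. It was grown at 20% O2 for 1 day, at 1% O2 for 1 day, at 20% O2 for 10 days, at 1% O2 for 10 days, or at 1% O2 for 10 days and then at 20% O2 for another 10 days (reoxygenated). Each condition had 1 library, made with an mRNA kit, and the labels name no agent beside oxygen. The study set acute (day 1) beside chronic (day 10) low oxygen and asked what remained after reoxygenation. The reoxygenated culture had been kept for 20 days in all, with no control library of that age, so oxygen history and time in culture cannot be told apart there.

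Long noncoding RNAs are capped, spliced and mostly polyadenylated transcripts that are not known to be translated. Some act as scaffolds for proteins, some sequester RNA-binding proteins, and some act on a neighbouring gene in cis. Most are present at low levels and in few cell types. In low oxygen the transcription factors HIF-1 and HIF-2 escape degradation and bind a short core motif in the DNA of their targets, coding and noncoding alike.

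The promoter windows of 6 LINC genes are given first: 5 that were higher at 1% O2 on day 10, and LINC00704, which was lower. They were picked, and the 5 are not those with the largest differences. Their matches therefore do not stand for the higher rows as a set. Each window runs from 250 bases before to 50 bases after the annotated start (RefSeq, GRCh38.p14) and is written 5′ to 3′ along the gene's own strand. Both strands were searched, and a palindromic site would count on each. Capitals mark the HIF core motif, ACGTG or GCGTG, or its reverse complement CACGT or CACGC.
LINC01583, chr15:82088344-82088643, plus strand: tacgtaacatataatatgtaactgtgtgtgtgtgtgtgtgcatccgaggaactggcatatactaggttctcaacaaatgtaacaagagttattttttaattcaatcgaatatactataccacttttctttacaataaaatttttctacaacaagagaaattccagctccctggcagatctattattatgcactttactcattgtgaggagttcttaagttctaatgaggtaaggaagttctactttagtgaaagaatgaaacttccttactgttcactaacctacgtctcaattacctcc
LINC00886, chr3:156817013-156817312, minus strand: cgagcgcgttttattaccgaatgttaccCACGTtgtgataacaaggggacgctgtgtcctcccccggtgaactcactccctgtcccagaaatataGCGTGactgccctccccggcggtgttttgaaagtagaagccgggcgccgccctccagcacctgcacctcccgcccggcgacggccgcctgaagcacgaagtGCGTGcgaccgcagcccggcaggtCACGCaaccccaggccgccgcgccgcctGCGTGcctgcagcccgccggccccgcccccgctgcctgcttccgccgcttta
LINC00887, chr3:194312755-194313054, minus strand: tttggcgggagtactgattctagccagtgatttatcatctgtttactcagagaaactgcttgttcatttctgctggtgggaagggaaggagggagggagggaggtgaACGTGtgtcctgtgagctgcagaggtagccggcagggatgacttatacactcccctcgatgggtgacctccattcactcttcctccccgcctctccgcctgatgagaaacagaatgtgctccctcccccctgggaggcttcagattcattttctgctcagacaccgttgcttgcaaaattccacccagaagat
LINC01123, chr2:109986730-109987029, plus strand: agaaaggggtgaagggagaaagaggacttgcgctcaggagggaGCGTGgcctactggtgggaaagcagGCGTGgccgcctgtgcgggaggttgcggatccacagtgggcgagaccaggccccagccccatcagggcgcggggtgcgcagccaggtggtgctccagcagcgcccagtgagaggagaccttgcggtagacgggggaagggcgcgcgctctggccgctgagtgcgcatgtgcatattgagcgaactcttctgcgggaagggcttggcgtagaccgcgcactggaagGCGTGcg
LINC01106, chr2:110384487-110384786, minus strand: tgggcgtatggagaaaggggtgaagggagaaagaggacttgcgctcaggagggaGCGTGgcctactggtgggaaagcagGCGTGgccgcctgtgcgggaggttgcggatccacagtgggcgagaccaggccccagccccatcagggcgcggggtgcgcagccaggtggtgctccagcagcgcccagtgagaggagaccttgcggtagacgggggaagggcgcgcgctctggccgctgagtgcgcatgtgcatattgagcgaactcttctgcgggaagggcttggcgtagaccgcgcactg
LINC00704, chr10:4678021-4678320, minus strand: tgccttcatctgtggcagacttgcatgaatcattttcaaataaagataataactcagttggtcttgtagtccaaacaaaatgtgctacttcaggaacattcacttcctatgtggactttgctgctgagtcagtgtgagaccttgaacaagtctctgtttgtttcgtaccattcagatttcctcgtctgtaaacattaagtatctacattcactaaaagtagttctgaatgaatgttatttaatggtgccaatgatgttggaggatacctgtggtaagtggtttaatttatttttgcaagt
The LINC00886 window held 5 matches, that of LINC01123 3, that of LINC01106 2, that of LINC00887 1, and those of LINC01583 and LINC00704 none. The windows of LINC01123 and LINC01106, which lie on opposite strands of chromosome 2, are offset by 11 bases and identical in all 289 bases where they overlap. Across the RefSeq table, 48.4% of 35116 windows of this length held at least 1 match. Of the 101 LINC rows with a window, 49 did (48.5%), and of the 31 that were higher at 1% O2 on day 10, 17 did (54.8%). None of the 3 lower ones with a window did. A match describes letters only, and a window without one says nothing of a factor's binding elsewhere.

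Library totals ran from 7719797 (reoxygenated) to 12544953 (20% O2, day 10), so that 1 count was worth 0.0816 to 0.126 CPM. A row at 0 counts could still stand for up to 3, which is 0.245 CPM in the deepest library and 0.377 CPM in the shallowest. Intervals given below cover counting error at 95% only. With 1 library per condition, differences between 2 libraries have no replicate check and carry no p-value. They are called higher or lower past a log2 difference of 1 (2-fold), computed after a prior count of 2 was added, which understates the change of rows with few counts. The markers of the cell line were present. VIM ran from 977 to 2198 CPM, CD44 from 558 to 1176, AXL from 663 to 1061 and MMP1 from 850 to 3414. S100A4 had less, 11.0 to 35.8 CPM. Their log2 differences on day 10 were -0.68 (VIM), -1.08 (CD44), -0.43 (AXL), 1.49 (MMP1) and 1.06 (S100A4). The 6 luminal or epithelial markers summed to 25.6 to 37.8 CPM. Of the 6, EPCAM (at least 15.1 CPM in every library) and GATA3 (6.23 to 9.71 CPM) were the most abundant, and the receptors ESR1 and PGR stayed at or below 0.383 CPM. Of the hypoxia reference genes, CA9, a carbonic anhydrase, had a log2 difference of 3.30 on day 1 and 2.99 on day 10. NDRG1 had 3.11 on day 1 and 5.55 on day 10, and ANGPTL4 had 2.13 and 4.51.

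Most of these RNAs were scarce. The median level over the 137 rows was 2.28 to 2.51 CPM in 4 of the libraries and 3.74 CPM in the library of 10 days at 1% O2, against 25.5 to 26.8 CPM over the 13885 genes with at least 1 CPM in 1 library. At least 1 CPM was reached by 97 of the 137 at 20% O2 and by 104 at 1% O2 on day 1, by 96 at 20% O2 and by 127 at 1% O2 on day 10, and by 105 after reoxygenation. Reaching 1 CPM is the rule of entry, and 18 rows entered through the library of 10 days at 1% O2 alone. The 127 and the median of that library are thus partly set by the rule. The like counts over all genes are not given here. Together they made up 0.135% to 0.190% of a library's counts. LINC00657 alone supplied 33.9% to 41.6% of their summed CPM.

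LINC00657 (chr20:36045618-36050960, minus strand, 1 exon), now named NORAD, is an RNA that binds Pumilio proteins and is needed for stable chromosome numbers. It had 473 CPM at 20% O2 and 623 CPM at 1% O2 on day 1, 537 and 650 CPM on day 10, and 657 CPM after reoxygenation. It was 1.32-fold (1.27 to 1.37) and 1.21-fold (1.17 to 1.25) higher at 1% O2 on day 1 and day 10, under the 2-fold rule. On the scale of CPM per kilobase of the longest GENCODE transcript its mean level was 110. LINC00674 (chr17:68101555-68135929) was next with 108 on that scale, which rests on a longest transcript of 678 bases. Behind them came LINC01296 with 35.4, a transcribed pseudogene now named DUXAP9, LINC00998 with 26.2, LINC00623 with 20.8, LINC00493 with 18.1, LINC01234 with 13.9 and LINC01004 with 13.8 CPM per kilobase. The median of the 129 rows with a length was 1.14 CPM per kilobase. LINC00998 and LINC00493 are not noncoding by current annotation: they are SMIM30 and SMIM26, which encode small membrane proteins. By CPM, which does not correct for length, LINC01296 (60.1 to 99.3 CPM), LINC00674 (61.6 to 91.0 CPM) and LINC00152 (43.9 to 59.1 CPM) followed LINC00657, and LINC01000, LINC00472, LINC01128 and LINC01578 (CHASERR, an RNA that acts on the neighbouring CHD2 gene) had means of 31.3 to 36.7 CPM.

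In all, RefSeq now lists 9 of the 137 as protein-coding and 32 under a name without the LINC prefix. The 9 are LINC00094 (BRD3OS), LINC00116 (MTLN, a mitochondrial inner membrane microprotein), LINC00176 (C20orf204), LINC00341 (SYNE3), LINC00493 (SMIM26), LINC00998 (SMIM30), LINC01207 (SMIM31), LINC01279 (CCDC80) and LINC01420 (NBDY, a microprotein of P-bodies). SYNE3 and CCDC80 also have rows of their own in the table, so the rows LINC00341 and LINC01279 are not those genes' counts. The log2 differences of the 9 on day 10 ran from -0.96 to 1.26 with a median of 0.09. Only LINC01207 was past the 2-fold rule, on 4 and 11 counts. LINC01420 stood at 13.3 and 12.2 CPM on day 1, 13.9 and 16.2 CPM on day 10 (20% and 1% O2 in turn) and 15.6 CPM after reoxygenation. The other 23 renamed rows, among them NORAD, CYTOR, MANCR, DUXAP9 and CHASERR, had 4 higher and 2 lower on day 10. Of the 105 rows that keep a LINC name, 36 were higher and 2 lower. Over all genes 14.1% were higher and 7.08% lower on day 10. No test was made between these groups, and their levels differ, with a median mean level of 6.05 CPM for the coding rows and 2.83 CPM for those that keep a LINC name.

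After 1 day at 1% O2, 10 of the 137 rows were higher than at 20% O2 and 4 were lower, or 7.3% and 2.92%, against 2.1% and 0.814% of all 13885 genes. The median log2 difference of the 137 was 0.08, and that of all genes 0.00. These shares are not matched for level, and most LINC rows have few counts. The highest of the rows with at least 20 counts and an interval that leaves out equality was LINC00936 (chr12:89708955-89711952), now ATP2B1-AS1, whose exon overlaps ATP2B1 on the other strand. Its counts were 6 at 20% O2 against 22 at 1% O2, or 3.53-fold higher (1.39 to 10.6). LINC00239 (chr14:101730437-101732525) had 5 and 18 counts and LINC00470 (chr18:1268311-1359629) had 6 and 18. LINC00622 (chr1:119597702-119599291, 1 exon) rested on more counts, 26 and 67, and was 2.48-fold higher (1.56 to 4.06). Next were LINC01583, with 14 and 34 counts, and LINC01291, with 17 and 34. The lower ends of these 6 intervals ran from 1.05-fold to 1.56-fold.

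Only LINC00958 (chr11:12979534-12989548) among rows of that depth was past the rule downwards on day 1, with 20 counts at 20% O2 against 9 at 1% O2, or 2.31-fold lower (1.01 to 5.76). The next lowest were smaller than 2-fold: LINC00452 (59 and 40 counts), LINC00261 (171 and 131 counts), an endodermal lncRNA gene near FOXA2, LINC00707 (197 and 162 counts) and LINC00998 (332 and 275 counts). The intervals of their differences leave out equality. Day 1 thus left nearly all of the better-counted LINC RNAs within 2-fold.

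After 10 days at 1% O2, 41 of the 137 rows were higher than at 20% O2 and 4 were lower, or 29.9% and 2.92%, against 14.1% and 7.08% of all genes. The median log2 difference of the 137 was 0.52, and that of all genes 0.01. The choice of rows enters this count. Of the 137, 22 reached 1 CPM in 1 library only, and for 18 of these it was the library of 10 days at 1% O2; 14 of the 18 were among the 41. Of the 82 rows at 1 CPM or more in all 5 libraries, 13 were higher and 2 lower (15.9% and 2.44%), against 9.15% and 7.09% of the 12258 genes that pass the same filter. The median log2 difference of these 82 was 0.28, and that of the 65 rows at 5 CPM or more in at least 1 library was 0.34.

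Level enters it as well. Among rows with a mean under 2 CPM, 26 of 57 were higher on day 10, and 45.2% of all genes at that level were. At 2 to 5 CPM, 8 of 28 were higher, against 30.6% of all genes. At 5 to 10 CPM the count was 6 of 23, against 19.5%, and at 10 CPM or more it was 1 of 29, against 5.98%. The share of higher rows was smaller in each class of higher level, for LINC RNAs and for all genes, and at like levels the share of LINC RNAs was near that of all genes. Lower rows numbered 2 of 57, 0 of 28, 0 of 23 and 2 of 29, against 5.6%, 4.08%, 4.61% and 8.06% of all genes. Shares by level were worked out for day 10 only. In the other comparisons the shares of all genes are not matched for level.

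**Figure D1:**
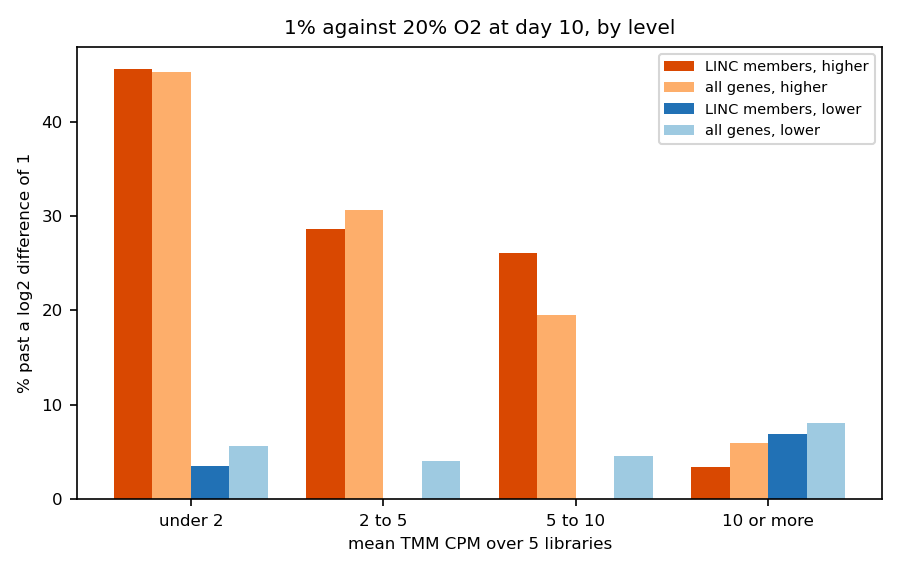
Share of LINC RNAs (dark bars) and of all genes (light bars), in percent, that were higher (orange) or lower (blue) by a log2 difference of at least 1 at 1% against 20% O2 on day 10, in 4 classes of mean TMM CPM over the 5 libraries. The higher share drops from the lowest class (26 of 57 LINC RNAs, 45.2% of all genes) to the highest (1 of 29, 5.98%).

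Markers of other cell types, also of low level, were measured beside these rows. The summed level of 7 markers of blood, endothelium, fibroblasts and liver was 8.18 and 8.89 CPM on day 1 (20% and 1% O2), 11.0 and 23.0 CPM on day 10, and 13.6 CPM after reoxygenation. Of the 7, PTPRC, CD14 and CDH5 were past the 2-fold rule on day 10. COL1A1, which supplied the most CPM of the 7, had a log2 difference of 0.91 and PECAM1 one of -0.27, and ALB and DCN had 0 or 1 count in every library. The part of these genes, or of RNA quality and depth, in the LINC count was not tested. In bulk RNA, fewer cells of a type and less RNA per cell cannot be told apart.

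**Figure D2:**
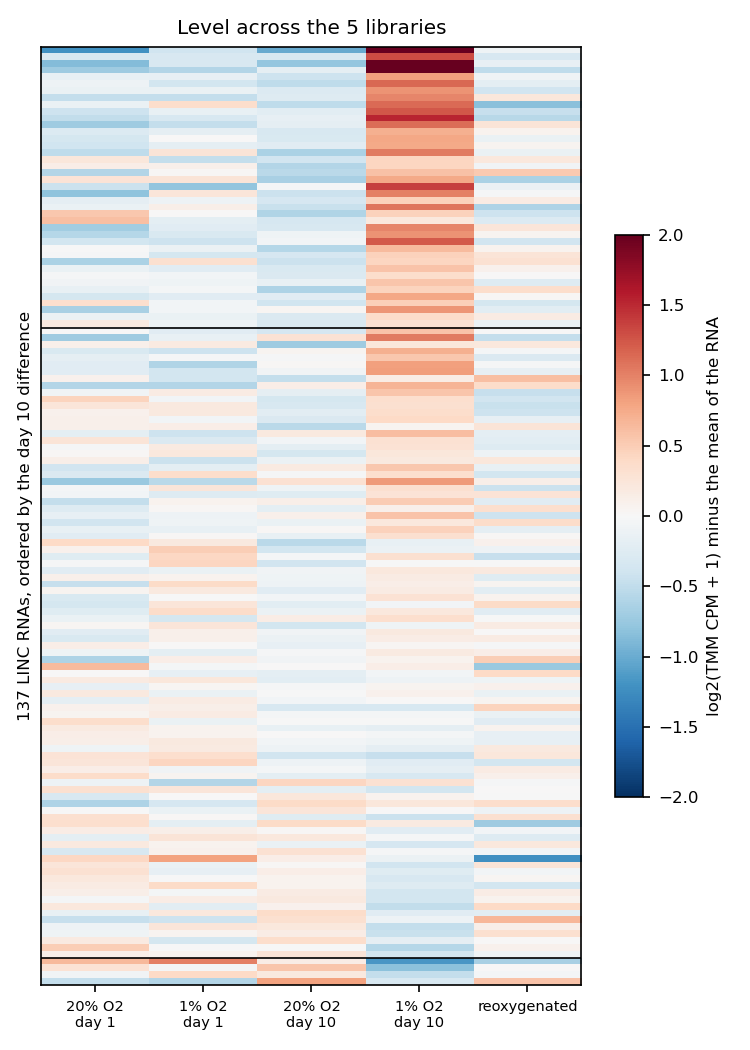
Level of each of the 137 LINC RNAs (rows, ordered by the day 10 difference) in the 5 libraries (columns), as log2(TMM CPM + 1) minus the mean of that RNA; red is above and blue below that mean. The 41 rows above the upper line were higher and the 4 below the lower line were lower at 1% against 20% O2 on day 10, and 69 of the 137 (50.4%) were highest in the library of 10 days at 1% O2, against 35.8% of all genes; 18 of the rows reached 1 CPM in that library alone.

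LINC01583 (chr15:82088594-82097694, plus strand, 6 exons) had the largest difference of all members on day 10. It had 14 counts at 20% O2 and 34 at 1% O2 on day 1, 21 and 356 counts on day 10, and 33 counts after reoxygenation, or 1.35, 3.15, 1.71, 34.1 and 4.15 CPM. The difference at 1% O2 was 2.34-fold (1.22 to 4.71) on day 1 and 19.9-fold (12.8 to 32.6) on day 10. Its window, printed above, holds no core motif. MEX3B, the nearest coding gene with a start site 42453 bases away, had a log2 difference of 0.88 on day 10.

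LINC00886 (chr3:156747343-156817062, minus strand, 3 exons in the longest transcript), whose window holds 5 core motifs, had 12 and 23 counts on day 1 and 16 and 166 counts on day 10, with 20 after reoxygenation. In CPM these were 1.16, 2.13, 1.30, 15.9 and 2.51. It was 12.2-fold (7.29 to 21.8) higher on day 10, while its day 1 interval (0.881 to 4.07) holds equality. The start of LEKR1 lies 8419 bases away; LEKR1 had 1, 3, 2, 7 and 4 counts in the same order of libraries.

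LINC00887 (chr3:194301199-194312804, minus strand, 4 exons) had 22 counts, 2.11 CPM, after 10 days at 1% O2 and none in the other 4 libraries. Set against the floor of 3 counts, it was at least 8.62-fold higher than at 20% O2 on day 10. LINC00520 (chr14:55781135-55796674) had 1 and 2 counts on day 1, 7 and 64 on day 10 and 2 after reoxygenation, a 10.7-fold difference on day 10 (4.92 to 27.8). LINC00957 (chr7:44039049-44044296) had 9, 6, 5, 36 and 6 counts, and was 8.46-fold higher on day 10 (3.31 to 27.6). LINC00173 (chr12:116533422-116536513) had 0, 0, 2, 18 and 5 counts. These 4 passed the 1 CPM threshold through the library of 10 days at 1% O2 alone, so that they could enter the set only by being high there.

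Rows with more counts differed by less. LINC01004 (chr7:104981747-104991165) had 59 and 112 counts on day 1, 63 and 193 on day 10 and 61 after reoxygenation, and was 3.60-fold higher on day 10 (2.70 to 4.86). LINC00622 had 43 and 118 counts on day 10, a 3.22-fold difference (2.26 to 4.68). LINC00963 (chr9:129488660-129513686) had 33 and 92 counts, a 3.28-fold difference (2.18 to 5.04). LINC01234 (chr12:113744577-113773683) and LINC00472 (chr6:71407864-71420745) were higher by 1.90-fold (1.65 to 2.19) and 1.96-fold (1.66 to 2.31), just under the rule, on 321 and 519 and on 236 and 393 counts. LINC00472 had 357 and 394 counts on day 1, so that its day 10 library at 20% O2 was its lowest.

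LINC01123 (chr2:109986980-109995281, plus strand) and LINC01106 (chr2:110375109-110384536, minus strand) share sequence beyond their promoters: 76.7% of the 50-base words of LINC01123 and 89.6% of those of LINC01106 occur in another gene's transcripts, most often in those of the other of the pair. LINC01123 had 130, 163, 122, 315 and 69 counts, and LINC01106 had 25, 40, 42, 103 and 44. Reads that fit both can be split in any way by the counting, so the sum is safer: 155 and 203 counts on day 1, 164 and 418 on day 10 and 113 after reoxygenation, with log2 differences of 0.33 on day 1 and 1.57 on day 10. Both rows were past the rule on day 10, and so was their sum.

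The 4 lower rows on day 10 were LINC01085, LINC00707, LINC00704 and LINC00565. LINC00704 (chr10:4650185-4678070, minus strand), now MANCR, an RNA described in mitosis of breast cancer cells, had 203 and 276 counts on day 1, 166 and 51 on day 10, and 59 after reoxygenation. It was 1.31-fold higher at 1% O2 on day 1 (1.09 to 1.58) and 2.77-fold lower on day 10 (2.01 to 3.87). LINC00707 (chr10:6779598-6842906, plus strand) lies on the same arm of chromosome 10, with 197 and 162 counts on day 1, 284 and 86 on day 10 and 123 after reoxygenation, 2.81-fold lower on day 10 (2.20 to 3.62). LINC01085 (chr4:14111968-14140052) had 6 and 5 counts on day 1, 35 and 8 on day 10 and 18 after reoxygenation. LINC00565 (chr13:113926514-113928991), now SWINGN, had 11 and 2 counts on day 10. The better-counted pair, LINC00707 and LINC00704, were at or above 13.5 CPM in every 20% O2 library of day 1 and day 10 and at or below 8.24 CPM after 10 days at 1% O2.

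The next lowest on day 10 were within 2-fold: LINC00346 (40 and 19 counts), LINC01296 (1194 and 627 counts) and LINC01128 (chr1:827591-859446, 513 and 284 counts). LINC01296 (chr14:19062377-19107497) was 1.62-fold lower (1.47 to 1.79) and shares 84.7% of its words, most with DUXAP10, so that its reads could be split among copies. Its level after reoxygenation, 90.4 CPM, lay beside the 97.4 CPM at 20% O2 on day 10.

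**Figure D3:**
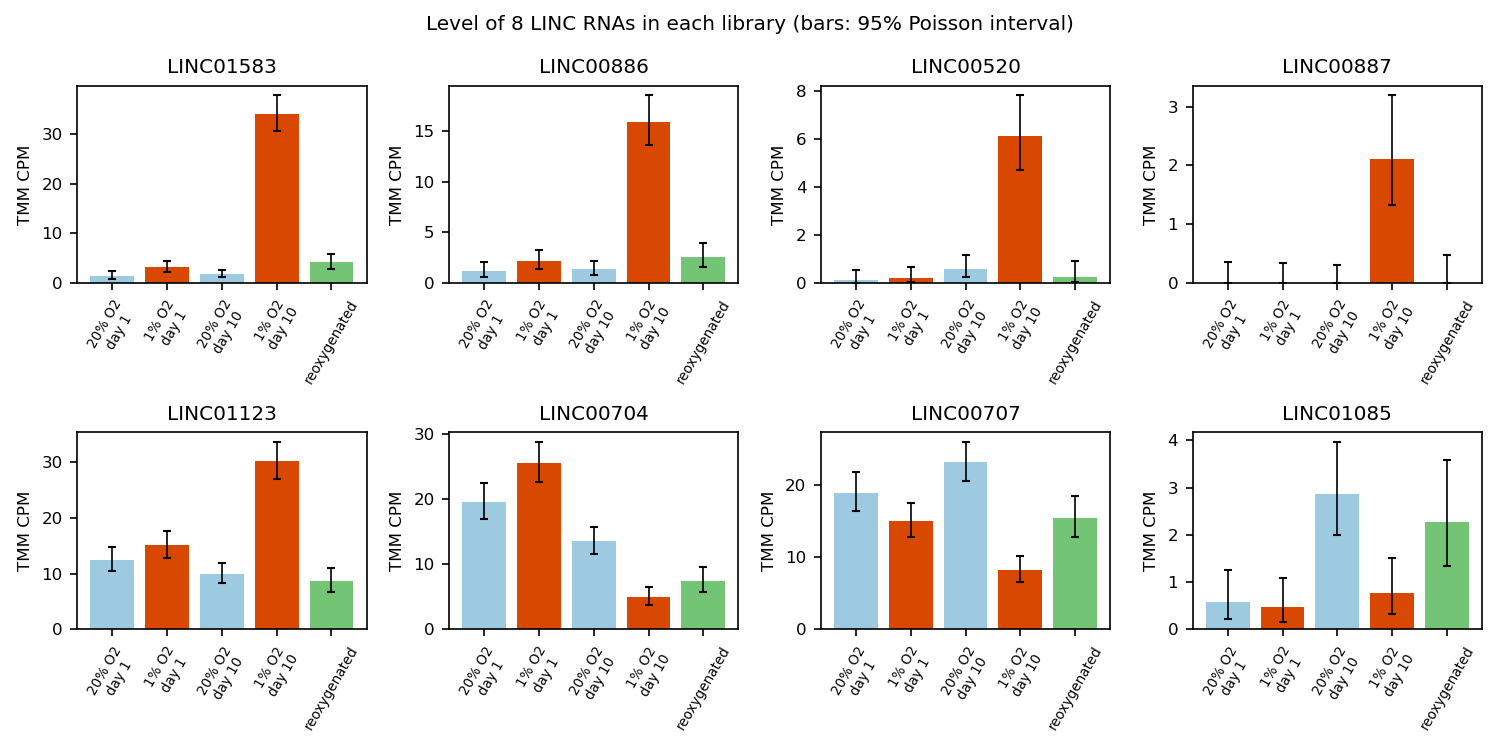
TMM CPM (vertical axis, from 0 in each panel) of 8 LINC RNAs in the 5 libraries, with 95% Poisson intervals that cover counting error only; blue bars are 20% O2, orange 1% O2 and green the reoxygenated library. LINC01583 reaches 34.1 CPM and LINC00886 15.9 CPM after 10 days at 1% O2, where LINC00704, at 4.89 CPM, and LINC00707, at 8.24 CPM, are lowest.

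The signed log2 difference at 1% against 20% O2 was higher on day 10 than on day 1 by at least 1 in 43 rows. It was lower by as much in 7. These are 31.4% and 5.11% of the rows, against 12.3% and 6.22% of all genes. A lower value can be a negative difference that became larger, as in LINC01085 (-0.23 on day 1, -1.67 on day 10). Day 1 and day 10 share no library. Past the rule in the same direction on both days were 5 rows, all higher: LINC00622, LINC00638, LINC00936, LINC01001 and LINC01583. How many of all genes were past it on both days was not counted. LINC00638 (chr14:104821201-104823718), now VESTAR, had 7 and 17 counts on day 1 and 9 and 29 on day 10. LINC01001 (chr11:127134-139117) shares 88.8% of its words, most with LINC01002, and its 5 libraries held 6 to 37 counts. Among rows of the depth named above, the highest values were in LINC00887 (3.58), LINC00312 (3.56), LINC01179 (3.21), LINC00957 (3.10), LINC01583 (3.05) and LINC00520 (2.66). The lowest were in LINC00565 (-2.36), LINC00704 (-1.82) and LINC01085 (-1.44). Of these 9, LINC00887, LINC00312, LINC00957 and LINC00520 reached 1 CPM only after 10 days at 1% O2, LINC01179 only at 20% O2 on day 1 and LINC00565 only at 1% O2 on day 1, so that the level that let them in is part of the value.

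**Figure D4:**
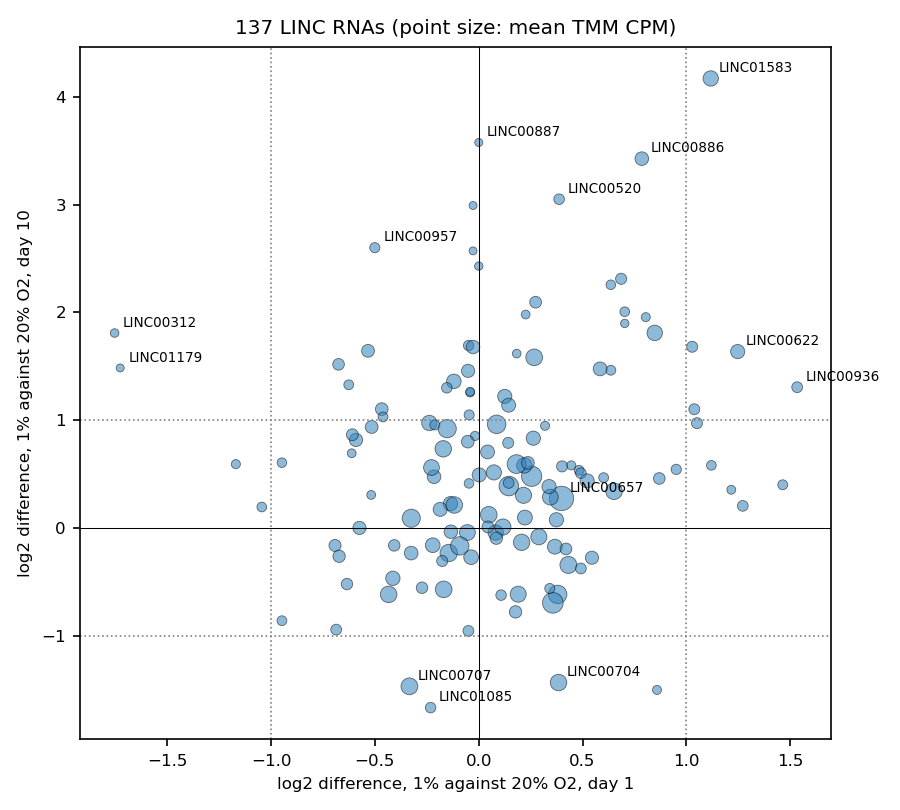
Log2 difference at 1% against 20% O2 on day 1 (horizontal) and day 10 (vertical) for the 137 LINC RNAs; point area grows with mean TMM CPM and dotted lines mark the 2-fold rule. The points spread from -1.75 to 1.53 on day 1 and from -1.67 to 4.17 on day 10, and LINC00657, the most abundant, sits near the centre at 0.40 and 0.27.

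In the reoxygenated library 43 of the 137 rows were lower than after 10 days at 1% O2 and 5 were higher, or 31.4% and 3.65%, against 10.9% and 5.63% of all genes. This comparison and that of day 10 share the library of 10 days at 1% O2, and the 18 rows that reached 1 CPM in that library alone, LINC00520, LINC00887 and LINC00482 among them, had to be high there. Of the 82 rows at 1 CPM or more in all 5 libraries, 16 were lower and 1 higher (19.5% and 1.22%, against 6.56% and 5.20% of the 12258 genes that pass the same filter). The lowest were LINC00520 (64 to 2 counts), LINC00887 (22 to 0 counts, at least 5.59-fold lower), LINC00324 (chr17:8220630-8224043, 46 to 3 counts), LINC01583, LINC00482 (chr17:81302824-81309248, 32 to 2 counts) and LINC01011 (72 to 7 counts). LINC01583 was 8.22-fold lower (5.75 to 12.1) and LINC00886 6.33-fold lower (3.97 to 10.6). LINC01085, from 8 to 18 counts, was 2.95-fold higher (1.22 to 7.85), and LINC00473, an RNA known for its response to cyclic AMP, went from 12 to 21 counts. LINC00707 was 1.88-fold higher (1.41 to 2.50) and LINC00704 1.52-fold higher (1.03 to 2.25), both under the rule.

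Set against 10 days at 20% O2, the reoxygenated library had 12 rows higher and 4 lower, or 8.76% and 2.92%, against 3.36% and 1.36% of all genes. The shares of all genes are not matched for level here, so a larger share of LINC rows may come with their few counts, which was not tested. LINC00638 was 3.60-fold higher (1.58 to 8.92), with 9 counts at 20% O2, 29 after 10 days at 1% O2 and 21 after reoxygenation. LINC01355 (chr1:23281309-23285518) was 2.90-fold higher (1.56 to 5.57) and LINC01583 2.42-fold higher (1.36 to 4.41). The others named by the rule, LINC00936, LINC01347 and LINC01094, were 2.47-fold (1.05 to 6.08), 2.24-fold (1.47 to 3.43) and 2.13-fold (1.17 to 3.93) higher. LINC00662 (chr19:27790493-27793940) was 3.05-fold lower (1.52 to 6.77), on 47 and 10 counts, and LINC01426 (chr21:34745825-34784886) was 2.59-fold lower (1.03 to 7.76), on 24 and 6. LINC00704 remained 1.82-fold lower (1.35 to 2.50). LINC00472 stood at 37.3 CPM, beside 37.7 CPM after 10 days at 1% O2 and 19.2 CPM at 20% O2 on day 10.

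The pair of 20% O2 libraries, which differ in days and not in oxygen, gives the size of differences seen without low oxygen. Between day 1 and day 10 at 20% O2, 12 rows were higher and 6 lower, or 8.76% and 4.38%, against 3.02% and 1.28% of all genes, again not matched for level. LINC01085 (6 to 35 counts), LINC00894 (1 to 10 counts) and LINC01426 (5 to 24 counts) were the highest, and LINC01179 (11 to 1 count) and LINC01560 (35 to 12 counts) the lowest. This pair and the day 10 comparison share the 20% O2 library of day 10. Of the 41 rows higher at 1% O2 on day 10, 5 were lower over time at 20% O2. These were LINC00312, LINC00648, LINC01088, LINC01179 and LINC01560. Another 4 were higher over time: LINC00520, LINC00663, LINC00910 and LINC01001. Of the 4 rows lower at 1% O2 on day 10, LINC01085 was higher over time. The like overlaps over all genes were not counted. At 1% O2, 38 rows were higher on day 10 than on day 1 and 5 lower, or 27.7% and 3.65%, against 13.9% and 6.62% of all genes.

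The one comparison with more than 1 library on each side set both 1% O2 libraries against both 20% O2 libraries, with the day as a term (edgeR quasi-likelihood test, 1 residual degree of freedom, Benjamini-Hochberg adjustment over 13011 genes). Of the 137 rows, 108 could be tested and 2 rose, 1.85%, against 0.899% of all genes tested; none fell, against 0.0999%. LINC01583 rose by a log2 fold change of 3.04 (SE 0.56, edgeR adjusted p = 0.0025) and LINC00886 by 2.45 (SE 0.60, edgeR adjusted p = 0.0376). LINC01583 was past the 2-fold rule on both days and LINC00886 on day 10 alone, with a log2 difference of 0.79 on day 1. At an unadjusted p under 0.05, 11 of the 108 rows were higher and 1 was lower (LINC00707), against 1593 of the 13011 genes in either direction. Together these rows were no larger a share than that of all genes. The 1593 were not split by direction. LINC01004 (edgeR log2 fold change 1.38, adjusted p = 0.108) and LINC00622 (1.52, adjusted p = 0.117) came next. The labels do not say that the days were separate cultures, and the test's residual is the difference between the days in the oxygen effect. Without the day term, or scaled by library totals alone, neither RNA passed, and DESeq2 called LINC01583 alone. With 1 library left out and no day term, 13 of 103 rows rose and 2 fell without the 1% O2 library of day 1, or 12.6% and 1.94%, against 15.7% and 17.0% of the 12886 genes of that fit. None did without any of the other 3. Each such fit leaves 1 library on one side, which is assumed to vary like the others.

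The position of the genes was examined because some lncRNAs share a start region with a coding gene. In GENCODE v29, 131 rows had a start site, and 29 lay within 10000 bases of the nearest protein-coding start, with a median distance of 43326 bases over all. Of these, 7 formed divergent pairs, pointing away from a coding gene on the other strand within 1000 bases. On day 10 only LINC01089 (12, 11, 11, 26 and 12 counts) and LINC01560 (35, 22, 12, 33 and 10 counts) among the 7 were past the rule. Their partners SETD1B, a histone methyltransferase gene, and ZNF41, a zinc finger gene, had log2 differences of -0.30 and -0.02. Pairs on opposite strands within 1000 bases whose start regions overlap are not among the 7. Of this kind, LINC00936 (341 bases from ATP2B1) and LINC01481 (366 bases from CNOT2) were past the rule on day 10, at 1.31 and 1.03. ATP2B1 and CNOT2 were at -0.16 and -0.22. LINC-PINT, LINC00476, LINC00894, LINC00909 and LINC01024 were of this kind too and within the rule.

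Of the 96 rows whose nearest coding gene was itself tested, 30 were higher on day 10, and in 4 of these the neighbour was higher too; over all 96 pairs, 11 neighbours were higher. Within 10000 bases (22 pairs), 8 LINC RNAs were higher and no neighbour was. Across the 96 pairs, which share libraries and differ in depth, Pearson's r of the day 10 differences was -0.02 and Spearman's rho 0.01. LINC01011 (chr6:2987967-2991171), whose start lies 20 bases from that of NQO2 and whose exon overlaps it on the same strand, had 10, 13, 18, 72 and 7 counts. NQO2, a quinone reductase gene, had 141, 114, 132, 198 and 166. The log2 differences on day 10 were 2.09 and 0.81, and reads in the shared stretch cannot be assigned. LINC01270 (chr20:50292720-50314919) was one of the 4 with a higher neighbour: it had a log2 difference of 1.46, and CEBPB, a bZIP transcription factor gene with its start 101986 bases away, 1.55.

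**Figure D5:**
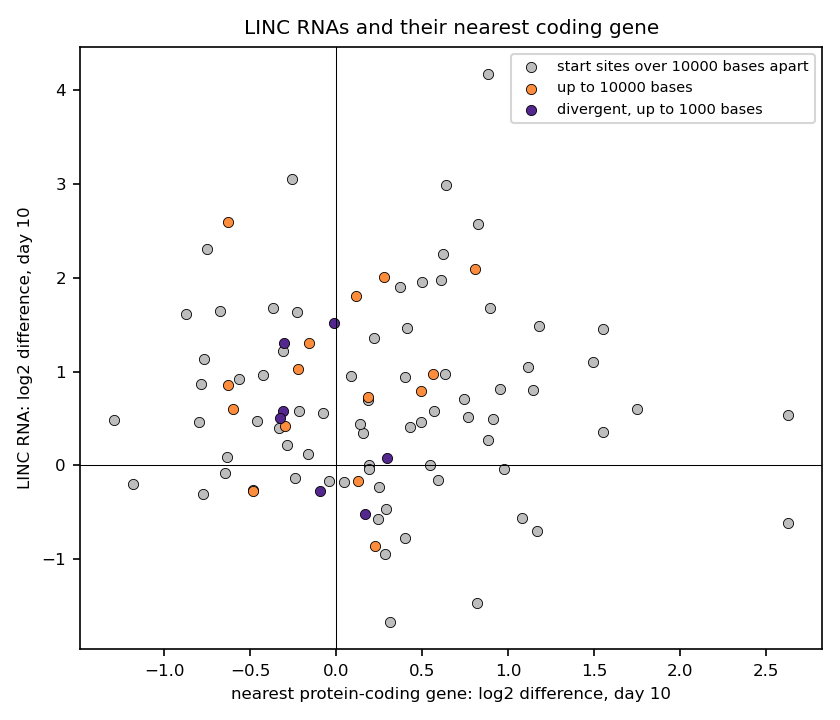
Log2 difference at 1% against 20% O2 on day 10 of 96 LINC RNAs (vertical) and of the nearest protein-coding gene (horizontal), coloured by the distance between start sites. In the 22 pairs within 10000 bases, divergent ones included, the neighbours run from -0.63 to 0.81, and 8 LINC RNAs lie above a log2 difference of 1.

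Overlap and shared sequence limit what a row can say. The exons of 57 rows overlap another gene, 41 of them a gene on the opposite strand, and the strand setting of the counting is not given in the sources used here. Of these 57, 17 were higher and 2 lower on day 10, and of 74 rows without overlap 23 and 2. Of all genes, 14.1% were higher and 7.08% lower. The median mean level was 5.74 CPM with overlap and 1.90 CPM without, and no test was made between these groups. Of 9 rows that share at least 50% of their words with another transcript, 4 were higher, at a median mean level of 10.6 CPM. LINC01001, LINC01002 and LINC01347, which share words, summed to a log2 difference of 0.84 on day 10, and LINC00623 with LINC00869 to -0.11.

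A panel of better known LINC symbols was followed as well. LINC00152 (CYTOR, chr2:87455427-87521518) had 53.4 and 59.1 CPM on day 1, 43.9 and 57.5 CPM on day 10 and 44.4 CPM after reoxygenation. LINC-PINT (chr7:130877562-131109925), an RNA induced by p53, had 6.69 CPM at 20% O2 and 13.3 CPM at 1% O2 on day 10, 1.99-fold higher (1.51 to 2.65). LINC00665 (chr19:36313061-36331753) was past the rule, 2.26-fold higher on day 10 (1.36 to 3.82). LINC00941 had a 1.49-fold lower level and LINC00346 a 1.79-fold lower one, within the rule. The log2 differences of LINC00467 and LINC01116 were -0.16 and -0.13, and that of LINC00116, the MTLN gene, was -0.47. The row of LINC00511 had at most 1 count in a library and that of LINC-ROR none, so neither was among the 137.

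Near the threshold of 1 CPM, membership turned on single counts. Just inside were LINC01207 and LINC01366, each with a highest level of 1.05 CPM, and LINC01204 with 1.01 CPM. Just outside were LINC01534 at 0.963 CPM, and LINC00313 and LINC00624 at 0.958 CPM. All 6 had 10 or 11 counts in their highest library, except LINC01204, which had 8 in the reoxygenated library, the one with the lowest total.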

How the data were processed

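RNA-seq of 5 MDA-MB-231 libraries was used, 1 per condition, grouped from the labels. The authors deposited expected counts, 1 row per gene symbol, made with Bowtie2 2.1.0, RSEM 1.2.15 and hg38, per the submitters' processing notes; the sources used here do not give the annotation, strand setting or filters. RSEM shares out reads that fit several genes, so 3.58% to 4.09% of values were not whole. The authors also deposited a normalized table, whose values are a signal like CPM after TMM scaling (edgeR, per the submitters' processing notes). Its values came out as whole reads in 100% of cases at a tolerance of 0.01 reads, and edgeR on these reads called the same numbers, 117 genes risen and 13 fallen. The recovered reads differ from the rounded counts in 8 to 19 rows per library, so the same calls are no separate check.

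Expected counts were rounded. TMM factors and CPM came from edgeR 4.0.16 (R 4.3.3). Log2 differences between 2 libraries used a prior count of 2 and a size rule of 1. Ratios have exact Clopper-Pearson intervals and levels Poisson intervals, at 95%, for counting error only. The oxygen test was edgeR's quasi-likelihood test with the day as a term. It covered genes that reached 1 CPM in 2 or more of the 4 libraries, with an adjusted p threshold of 0.05. Its 1 residual degree of freedom is the difference between the days in the oxygen effect. Added to it are 29.8 prior degrees of freedom estimated over all genes tested. Nothing says that the libraries came from separate cultures, so its p-values do not measure spread between replicate cultures. DESeq2 1.42.0 and limma 3.58.1 (voom) were alternatives. The scripts were tested on simulated data.

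All 137 symbols matched RefSeq (105 by symbol, 32 by synonym). Promoter windows came from RefSeq (GRCh38.p14), which gave 101. Transcript lengths, start sites, overlaps and neighbours came from GENCODE v29, in place of the RefSeq table that had been planned, because its promoter list is partial. Some matches may be to another gene. LINC00473, a lncRNA in RefSeq, was matched to a GENCODE protein-coding gene with 22 exons in its longest transcript. Counts by length, start site, overlap and neighbour include such rows. Words of 50 bases, taken every 10 bases, measured shared sequence.

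In each comparison of oxygen or reoxygenation, the 6 highest and 6 lowest rows with at least 20 counts and an interval without equality were named, with the most abundant rows, those passing the oxygen test, those renamed or protein-coding, divergent pairs past the size rule, rows at the threshold and a panel of known lncRNAs. Rows named beyond these (such as LINC01234, LINC00963 on day 10, LINC01270 and LINC01011 with its neighbour) were chosen after their values were seen. The rows, lists and tests were chosen with earlier results of these data known. Alternatives covered scaling, the prior count, filters on low values, the deposited table, rows of shared sequence and libraries left out.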

Additional observations from a re-analysis of the deposited data

Results flagged for a closer look

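In LINC00312 (chr3:8571782-8574668) the difference at 1% O2 had opposite directions on the 2 days. It had 8 counts at 20% O2 and 1 at 1% O2 on day 1, 2 and 11 on day 10, and 6 after reoxygenation. The log2 difference was -1.75 on day 1 and 1.81 on day 10, a change of 3.56. LINC01179 (chr4:165684639-165762778) had 11 and 2 counts on day 1, 1 and 6 on day 10, and 1 after reoxygenation, with log2 differences of -1.73 and 1.48 and a change of 3.21. LINC00312 reached 1 CPM only after 10 days at 1% O2 and LINC01179 only at 20% O2 on day 1, so the counts that let them into the set are among those compared. With 1 library per condition the change between days was not tested, and every count is at or below 11.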

How the results depend on the processing

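Direction was followed only for the highest and lowest rows listed for the oxygen and reoxygenation comparisons, and for the 2 rows called by the test. None of these turned its direction under the alternatives run for it. The other rows past the size rule were not followed one by one. A count of rows has no direction to turn. Of the counts under the alternatives, 66 moved past the fold limit named at the end of this section and 66 did not. The median log2 difference over time at 20% O2 changed sign, from -0.10 to 0.11 with no filter on low values. With library totals that median was 0. No paired analysis was possible because each condition had 1 library and the labels carry no replicate number; the oxygen test used the day as a term, and with no replicate block (day term left out) 0 rows rose, against 2. DESeq2 gave 1 risen row, library totals 0, and no filter on low counts 5 (LINC00520, LINC00622, LINC00886, LINC01004 and LINC01583). With limma-voom the rows called were those of the reported test, LINC00886 and LINC01583. So they were with edgeR on the recovered reads, which are nearly the same counts and thus no separate check. With 1 library left out and no day term, the rows that rose numbered 0 to 13 and those that fell 0 to 2, the highest values without the 1% O2 library of day 1, where 15.7% of all genes rose and 17.0% fell.

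Counts of higher and lower rows depended on the filter. With at least 5 CPM in 1 library (65 of the 137 rows), higher and lower rows numbered 2 and 0 on day 1, 14 and 2 on day 10, 0 and 13 for reoxygenated against 10 days at 1% O2, 2 and 0 for reoxygenated against 20% O2, 2 and 2 over time at 20% O2, 11 and 1 over time at 1% O2, and 14 and 3 for day 10 minus day 1. With no filter (277 to 362 rows with a count in the libraries compared) these were, in the same order, 24 and 10, 84 and 11, 15 and 83, 22 and 14, 23 higher over time at 20% O2, 79 and 9, and 88 and 24. With at least 1 CPM in all 5 libraries (82 rows), a filter chosen after seeing the data, they were 2 and 0, 13 and 2, 1 and 16, 4 and 1, 2 and 2, 10 and 2, and 14 and 3. On day 10 the higher and lower shares of all genes were 9.84% and 7.43% at 5 CPM. They were 9.15% and 7.09% at 1 CPM in all libraries, and 15% and 6.44% with no filter. On day 1 these shares were 0.911% and 0.189% at 5 CPM, and 2.75% and 1.48% with no filter. For reoxygenated against 10 days at 1% O2 they were 5.34% and 7.25% at 5 CPM, and 5.64% and 12.4% with no filter. The shares for the other comparisons under these filters are not given here.

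The median of day 10, 0.52, was 0.28 to 0.69 under the alternatives. On the deposited table, as log2(value + 1), counts were 1 and 0 on day 1, 26 higher on day 10, 0 and 21, 2 and 2, 4 and 1, 22 and 1, and 28 higher for day 10 minus day 1. Library totals without TMM factors left 3 lower over time at 1% O2 and 4 lower for day 10 minus day 1; they shifted the median of all genes on day 10 from 0.01 to 0.13 and the share of higher calls from 66.6% to 77.3%. A prior count of 0.5 gave 7 lower for reoxygenated against 20% O2 and 11 lower for day 10 minus day 1. DESeq2's size factors, and leaving out rows of shared sequence (chosen after seeing the data), moved no count by more than 1.5 times. Depth limits rows under 2 CPM, where 1 count is 0.0816 to 0.126 CPM.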
